A study of Mus musculus with 26 samples.

Results

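CD4+ Foxp3+ regulatory T (Treg) cells were taken from the central nervous system (CNS) of mice with experimental autoimmune encephalomyelitis (EAE), and cells from mice lacking the TNF receptor TNFR2 in Treg cells were compared with cells from control mice. The libraries were chosen by their labels, 3 of Treg_CNS_icKO and 3 of Treg_CNS_Ctrl, which are 6 of the 26 bulk RNA-seq libraries in the series, and all genes were examined. The other libraries hold Treg cells of draining lymph nodes (dLN) and conventional T (Tconv) cells of both tissues. All mice were C57BL/6 with active EAE, a model of multiple sclerosis, and received tamoxifen from day 7 to day 14. Control mice (Ctrl) carried Foxp3Cre-ERT2, a tamoxifen-inducible Cre recombinase expressed from the Foxp3 gene, and conditional knockout mice (icKO) were Foxp3Cre-ERT2 x Tnfrsf1bFlox/Flox. The Cre allele and the tamoxifen were thus common to both groups, and Cre was limited to cells that express Foxp3. The labels give neither the age of the mice nor the exons that were floxed, and they number the libraries of each group as mice.

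TNFR2, the product of Tnfrsf1b, binds TNF, with a preference for its membrane-bound form, and signals through TRAF2 to the NF-kB pathway. It lacks the death domain of TNFR1, the more widely expressed TNF receptor encoded by Tnfrsf1a. Treg cells, which depend on the transcription factor Foxp3 and restrain other immune cells, carry much TNFR2, and the receptor is known to favour their expansion and the stability of their programme. In EAE they enter the inflamed CNS beside effector T cells, monocytes and activated microglia.

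The total expected count was 13.5, 16.9 and 15.6 M reads in Ctrl replicates 1, 2 and 3, and 15.3, 14.4 and 12.9 M reads in the icKO replicates, with 12340 to 14259 genes above 0. Spearman correlations across genes between these libraries were 0.94 to 0.979, and the highest was between Ctrl replicate 3 and icKO replicate 1, which belong to different genotypes. In a principal component analysis of 8718 genes, the first component held 37.0% of the variance, with Ctrl libraries at -4.9, 21.0 and -1.41 and icKO libraries at 4.09, -41.2 and 22.4, so that it did not separate the genotypes. The genotypes overlapped on the second component too, with 23.7%, but not on the third, with 18.7%. On the third, Ctrl libraries were at -29, -9.53 and 6.43 and icKO libraries at 8.46, 7.83 and 15.8. Genes with the most negative weights on it included Ngp, Cd177 and S100a8, known from neutrophils, and Jchain, known from plasma cells. The labels do not say that each library came from a single mouse, and p-values measure the spread between these libraries. Levels are given as CPM, the counts per M of the TMM-scaled library total, or as TPM, which also accounts for transcript length. Ranges for the rest of the series leave out dLN Tconv icKO replicate 3, which stood apart from its group.

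T cell and Treg transcripts were present in every library, together with abundant transcripts of myeloid cells. Cd3e, a signalling chain of the T cell receptor complex, was at 1130 ± 29.2 TPM (SD, n = 3) in Ctrl and 1329 ± 119 TPM in icKO libraries. Cd4, the co-receptor that defines the sorted lineage, was at 400 ± 6.39 TPM in Ctrl and 352 ± 78.3 TPM in icKO libraries, the lowest value being 267 TPM in icKO replicate 3. Foxp3 was detected in all 6 libraries at 10.2 to 30.5 TPM. Per M counts of the library total it was at 22.6 to 67.5 CPM in the CNS Treg libraries, against 36.5 to 60.8 CPM in dLN Treg and 0.121 to 1.47 CPM in Tconv libraries. Beside these, Cd74, the invariant chain of MHC class II, was at 4700 to 6098 TPM, and Lyz2, the lysozyme of monocytes and macrophages, at 693 to 2673 TPM. The defining transcripts of the label were thus present, and the libraries also held RNA that T cells are not known to make in such amounts. In such bulk samples fewer cells of a type and less RNA per cell cannot be told apart.

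The targeted gene, Tnfrsf1b (GRCm38 chromosome 4, 145213463 to 145246870, minus strand), was lower on average in icKO libraries, with overlap between the groups. Its level was 148, 230 and 235 TPM in Ctrl replicates 1 to 3, and 170, 113 and 98.0 TPM in icKO replicates 1 to 3. The library labelled icKO replicate 1 lay above Ctrl replicate 1, whereas icKO replicates 2 and 3 lay below all 3 control libraries. The log2 fold change was -0.59 ± 0.23 (SE), with a 95% interval of -1.10 to -0.08 and an adjusted p of 0.999 from edgeR's quasi-likelihood test over all genes. Without icKO replicate 1 it was -0.79, and across the 6 fits that each left out a library it was -0.79 to -0.47. Per M counts of the library total, Tnfrsf1b was at 450 to 681 CPM in CNS Treg Ctrl and 322 to 496 CPM in CNS Treg icKO libraries. It was at 778 to 902 CPM in dLN Treg Ctrl and 642 to 646 CPM in dLN Treg icKO libraries. In Tconv libraries of both tissues it was at 116 to 367 CPM, a range that overlaps that of the CNS Treg icKO libraries. The counts cover the whole gene. Transcripts of a recombined allele, of an allele that escaped Cre and of other cells in the sample cannot be told apart in them.

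**Figure D1:**
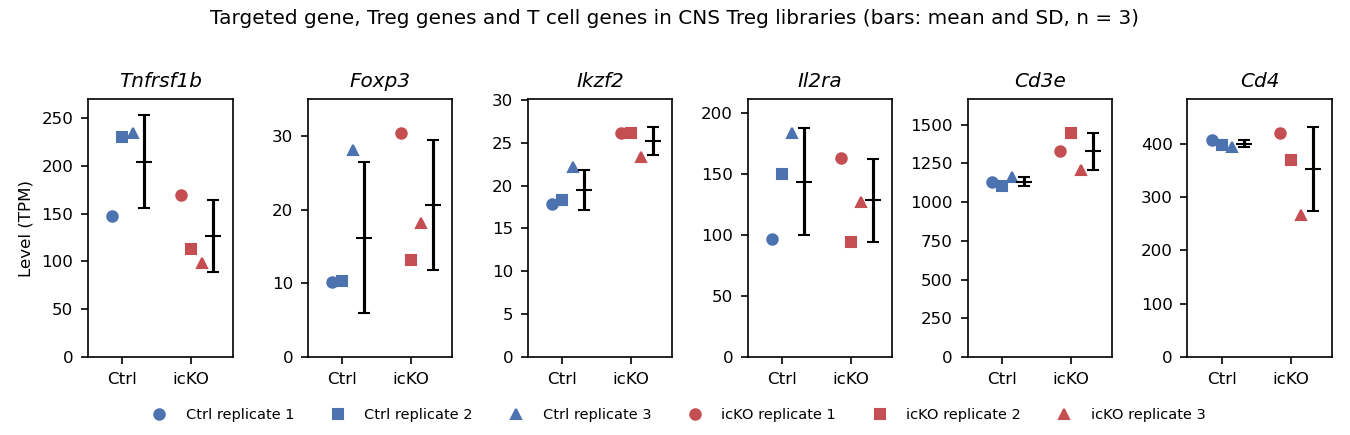
Level in TPM of the targeted gene Tnfrsf1b, of the Treg genes Foxp3, Ikzf2 and Il2ra and of the T cell genes Cd3e and Cd4, with each point a library and bars at the mean and SD of 3 libraries per genotype. Tnfrsf1b ranged from 148 to 235 TPM in Ctrl and from 98.0 to 170 TPM in icKO libraries, so that the genotypes overlapped, while the Ikzf2 points of the genotypes did not.

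No gene was called between the genotypes of CNS Treg cells in edgeR after adjustment. Of 12038 genes tested with edgeR's quasi-likelihood test on the 6 libraries, 0 had an adjusted p under 0.05, which is 0% of genes tested, and the lowest adjusted p was 0.707, for Cd8b1. At an unadjusted p under 0.05 there were 275 genes (2.28%), 131 higher and 144 lower in icKO cells. The icKO libraries lay above all Ctrl libraries for 471 genes (3.91%) and below all of them for 464 genes (3.85%). The median log2 fold change over all genes was -0.01, and 48.9% of genes had a value above 0. For the 8718 genes with a mean of at least 10 CPM, the median SE was 0.25 on the log2 scale. The median half-width of the unadjusted 95% interval was 0.57. After adjustment over all genes even larger differences were not called, such as log2 fold changes of 1.70 for Cd8b1 and 1.55 for Cd8a. The absence of calls in edgeR thus does not show that differences above 0.57 were absent. The DESeq2 Wald test called 1 gene, Cd8b1 (adjusted p = 7.28e-07), with 418 genes at an unadjusted p under 0.05. Without icKO replicate 1 there were 667 genes at an unadjusted p under 0.05, and without Ctrl replicate 3 there were 427, with 0 genes called in either fit.

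Genes of cytotoxic lymphocytes headed the 10 genes of smallest p among those that lay higher in every icKO library. Cd8b1 and Cd8a encode the chains of the CD8 co-receptor of cytotoxic T cells. Cd8b1 (chromosome 6, 71322788 to 71337494, plus strand) was at 56.9, 61.3 and 58.6 CPM in the Ctrl libraries and at 128, 208 and 237 CPM in the icKO libraries. The log2 fold change was 1.70 ± 0.24, and it was 1.51 without icKO replicate 3, the library with the highest level. Cd8a, its neighbour (chromosome 6, 71373427 to 71379173, plus strand), was at 28.9, 38.2 and 29.1 CPM in Ctrl and at 58.2, 76.6 and 147 CPM in icKO libraries. The log2 fold change of Cd8a was 1.55 ± 0.34, or 1.07 without icKO replicate 3. For both genes every icKO library exceeded every control library, and the icKO libraries spread more widely than the controls. Prf1, which encodes the pore-forming protein perforin, was at 14.4, 14.9 and 11.8 CPM in Ctrl and 24.2, 32.0 and 41.3 CPM in icKO libraries, a log2 fold change of 1.25 ± 0.28. Klrd1, the CD94 subunit of receptors on NK and CD8 T cells, was at 16.2 ± 3.63 CPM in Ctrl and 31.5 ± 5.02 CPM in icKO libraries. The chemokine Ccl5, made by activated cytotoxic and memory T cells, was at 148, 178 and 164 CPM in Ctrl and at 200, 289 and 500 CPM in icKO libraries. Its log2 fold change of 1.01 ± 0.30 became 0.58 without icKO replicate 3. The adjusted p was 0.707 for Cd8b1 and 0.999 for the other genes of this group in edgeR.

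The remaining genes of this set were not particular to cytotoxic cells. S100a4, a calcium-binding protein of motile and activated cells, was at 216, 164 and 191 CPM in Ctrl and at 404, 282 and 355 CPM in icKO libraries, a log2 fold change of 0.87 ± 0.19. With the length correction described below, this value was 0.57. Maf, a transcription factor of interleukin-10-producing and effector T cells, was at 35.3, 36.1 and 38.2 CPM in Ctrl and 53.7, 60.6 and 62.6 CPM in icKO libraries. The 3 libraries of each genotype were close together. The log2 fold change of 0.69 ± 0.19 kept to 0.64 to 0.75 when any library was left out. Maf was picked for a small p without overlap in these same libraries, so this steadiness partly follows from the choice. Ash1l, a histone methyltransferase, had a log2 fold change of 0.91 ± 0.22. Thy1, a surface glycoprotein of T cells, was at 48.9 ± 10.7 CPM in Ctrl and 80.2 ± 6.89 CPM in icKO libraries. Klhl28, of the Kelch-like family, was at 18.3 ± 1.69 and 31.1 ± 1.22 CPM. None of these had an adjusted p below 0.999.

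The 10 genes of smallest p that lay lower in every icKO library included transcripts known from neutrophils. Lcn2, which encodes lipocalin 2, an iron-sequestering protein of neutrophil granules and inflamed tissue, was at 87.9, 65.5 and 60.2 CPM in Ctrl and at 27.98, 39.1 and 35.1 CPM in icKO libraries. The log2 fold change was -1.06 ± 0.23. Cd177, a surface glycoprotein of neutrophils, was at 75.4, 27.8 and 24.4 CPM in Ctrl and at 15.7, 16.4 and 11.2 CPM in icKO libraries. Its log2 fold change of -1.56 ± 0.44 became -0.85 without Ctrl replicate 1, which alone held the high control value. In libraries of the other groups, Lcn2 did not exceed 8.59 CPM of the library total and Cd177 did not exceed 3.61 CPM. Ranbp9, a scaffold protein of an E3 ubiquitin ligase complex, was at 125 ± 4.73 CPM in Ctrl and 80.2 ± 4.17 CPM in icKO libraries, a log2 fold change of -0.64 ± 0.16. Prmt5, the main symmetric arginine methyltransferase, was at 82.1, 73.8 and 61.5 CPM in Ctrl and 39.9, 53.0 and 39.1 CPM in icKO libraries, with a log2 fold change of -0.72 ± 0.22. Gbe1, the glycogen branching enzyme, was at 28.1 ± 0.82 CPM in Ctrl and 13.9 ± 4.03 CPM in icKO libraries. Ptdss2, a phosphatidylserine synthase, was at 27.9 ± 5.77 and 13.3 ± 3.34 CPM. The log2 fold changes of Ppfibp1, Mtmr1, Fam53c and Pald1 were -1.11, -0.73, -0.69 and -0.95. All 10 had an adjusted p of 0.999.

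**Figure D2:**
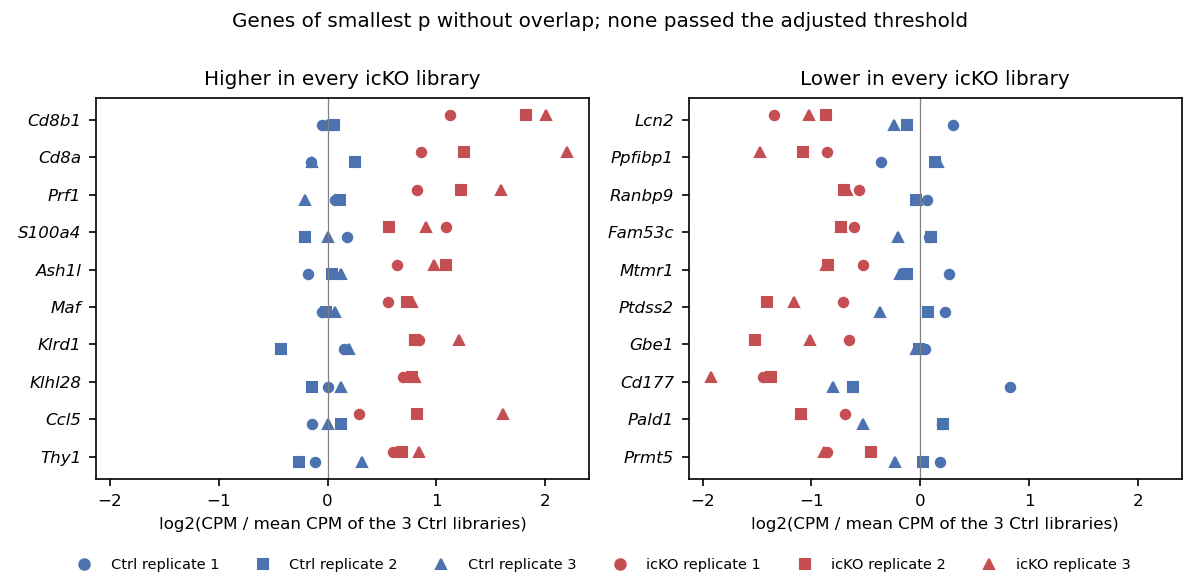
Level of the 10 genes of smallest p higher and the 10 lower in every icKO library, as the log2 ratio of CPM to the mean CPM of the 3 Ctrl libraries, with each point a library. Cd8b1 and Cd8a have the largest log2 fold changes among the higher genes, with icKO replicate 3 highest in both, and Cd177 has a control library, replicate 1, far above the others. These genes were picked because the genotypes did not overlap in them. None passed the adjusted threshold in edgeR, while the DESeq2 Wald test called Cd8b1.

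Other transcripts of cytotoxic lymphocytes also had higher average levels in icKO libraries, though none of them was called. Of the 19 genes listed for CD8 T and NK cells, 16 passed the filter on low counts, and Klrc2, Ncr1 and Klra7 did not. All 16 had log2 fold changes above 0, with a median of 1.14 against -0.01 for all genes. Of these 16, 6 lay higher in every icKO library (3.91% of all genes did) and 9 had an unadjusted p under 0.05. In edgeR 0 were called. The 6 were Cd8b1, Cd8a, Prf1, Klrd1, Klre1 and Eomes, and all but Klre1 and Eomes had already been picked above for not overlapping. Eomes, a transcription factor of memory CD8 T cells and NK cells, was at 2.28, 6.15 and 3.93 CPM in Ctrl libraries. In icKO libraries it was at 7.24, 10.01 and 10.8 CPM. Gzmk, a granule protease, was at 20.4, 14.5 and 9.63 CPM in Ctrl and 19.0, 33.7 and 52.2 CPM in icKO libraries. Gzma was at 43.2, 47.0 and 17.7 CPM in Ctrl and 43.7, 60.1 and 167 CPM in icKO libraries. For these genes the control and knockout libraries overlapped, and icKO replicate 3 was the highest. The summed level of the list per M counts of the library total was 1321, 1316 and 929 CPM in Ctrl and 1366, 1456 and 2444 CPM in icKO libraries. Without icKO replicate 3 the median log2 fold change of the list was 0.67. Nkg7, Fcer1g and Tyrobp, the most abundant members, overlapped between the genotypes, with log2 fold changes of 0.53, 0.17 and 0.07, and Fcer1g and Tyrobp are also genes of myeloid cells.

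Both CD8 chains lay higher in the CNS Treg libraries than in the other groups, a description for which no test was made. Per M counts of the library total, Cd8a was at 29.2 to 37.2 CPM in CNS Treg Ctrl and 58.2 to 140 CPM in CNS Treg icKO libraries, against 2.70 to 18.3 CPM in CNS Tconv and 0 to 4.40 CPM in dLN Treg libraries. Cd8b1 was at 57.6 to 61.1 CPM in CNS Treg Ctrl and 129 to 225 CPM in CNS Treg icKO libraries, against 14.5 to 50.5 CPM in CNS Tconv and 25.7 to 39.0 CPM in dLN Treg libraries. Prf1 and Klrd1 did not show this order. Prf1 was at 63.05 to 77.3 CPM in dLN Tconv Ctrl and 70.3 to 81.9 CPM in dLN Tconv icKO libraries, above every CNS Treg library. In CNS Tconv Ctrl libraries Prf1 was at 9.46 to 65.6 CPM and Klrd1 at 19.4 to 46.7 CPM. For Prf1 this range spans the values of both CNS Treg groups, and for Klrd1 it spans those of the icKO group, while those of the Ctrl group, 11.7 to 19.4 CPM, reach only its lower end. Whether CD8 T cells, NK cells or the Treg cells carried these transcripts was not tested.

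Myeloid transcripts varied between libraries without a common order by genotype. The 28 monocyte and macrophage genes summed to 13810, 12702 and 9885 CPM of the library total in Ctrl and 10751, 9381 and 13419 CPM in icKO libraries, and the median log2 fold change was -0.06. Of the 28, 0 lay outside the range of the other genotype, where 3.91% of all genes lay higher and 3.85% lower. Ms4a7, a marker of border-associated and inflammatory macrophages, was at 17.7, 7.12 and 9.32 CPM in Ctrl and 38.4, 30.9 and 11.0 CPM in icKO libraries. Ly6c2, the antigen of inflammatory monocytes, was at 379, 413 and 208 CPM in Ctrl and 402, 386 and 936 CPM in icKO libraries. Arg1, the arginase of inflammatory macrophages, ranged from 89.7 to 318 CPM in Ctrl and was at 37.2, 0 and 109 CPM in icKO libraries. The 13 microglial genes summed to 2327 to 3051 CPM in Ctrl and 2281 to 2837 CPM in icKO libraries, with a median log2 fold change of -0.03. P2ry12, the purinergic receptor of resident microglia, was at 126 to 176 CPM of the library total in these 6 libraries and did not exceed 9.87 CPM in any other group. The 20 dendritic cell and MHC class II genes had a median of -0.01 with 0 outside the other genotype's range.

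Neutrophil transcripts lay lower in icKO libraries on average and differed widely between single libraries. The 14 listed neutrophil genes, of which 12 were tested, summed to 1790, 809 and 994 CPM of the library total in Ctrl and 641, 955 and 283 CPM in icKO libraries. Their median log2 fold change was -0.76, and 10 of 12 values were below 0. It was -0.22 without Ctrl replicate 1 and -0.38 without icKO replicate 3. S100a8, a subunit of calprotectin, was at 396, 130 and 155 CPM in Ctrl and at 113, 217 and 34.2 CPM in icKO libraries. Ngp, neutrophilic granule protein, was at 370, 183 and 200 CPM in Ctrl and 108, 155 and 2.92 CPM in icKO libraries. It was the only tested member to lie lower in every icKO library (3.85% of all genes did), and the genotypes overlapped for S100a8. Il1r2, the decoy receptor for interleukin-1, is on this list and is also expressed by activated Treg cells. Per M counts of the library total, S100a8 was at 32.6 to 401 CPM in CNS Treg and at most 3.07 CPM in the other groups. Ctrl replicate 1 had the highest neutrophil sum and also the highest Lcn2 and Cd177 levels. The neutrophil sum of icKO replicate 2 exceeded that of Ctrl replicate 2, yet its Lcn2 and Cd177 levels lay below those of Ctrl replicate 2. The part of neutrophil RNA in the Lcn2 and Cd177 values was not tested.

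Transcripts of the other cell types were examined in the same way. The listed B and plasma cell genes, of which 10 were tested, summed to 314, 50.8 and 205 CPM of the library total in Ctrl and 55.1, 431 and 39.6 CPM in icKO libraries, and Pax5 was at 0 in all 6. Oligodendrocyte genes had 5 of 12 members tested, with Cldn11, Olig1 and Olig2 at 0 in all libraries, and a median log2 fold change of -0.32. Their sum was 1014, 920 and 747 CPM of the library total in Ctrl and 904, 930 and 847 CPM in icKO libraries, and most of it came from Cnp, a myelin enzyme gene at 520 to 821 CPM. Astrocyte and neuron genes had 7 of 14 tested, with Syt1 and Rbfox3 at 0, and a median of -0.27. The 8 tested genes of endothelium and fibroblasts had a median of -0.38. None lay outside the range of the other genotype, where 3.91% of all genes lay higher and 3.85% lower. For gamma-delta T and innate lymphoid cells 7 of 14 genes were tested, with a median of 0.36, and the most abundant of them, Gata3 and Il1rl1, are also genes of effector Treg cells. No erythroid gene passed the filter. Xist was at 0 in all 6 libraries and 4 genes of the Y chromosome were detected in each, with a median log2 fold change of 0.09.

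**Figure D3:**
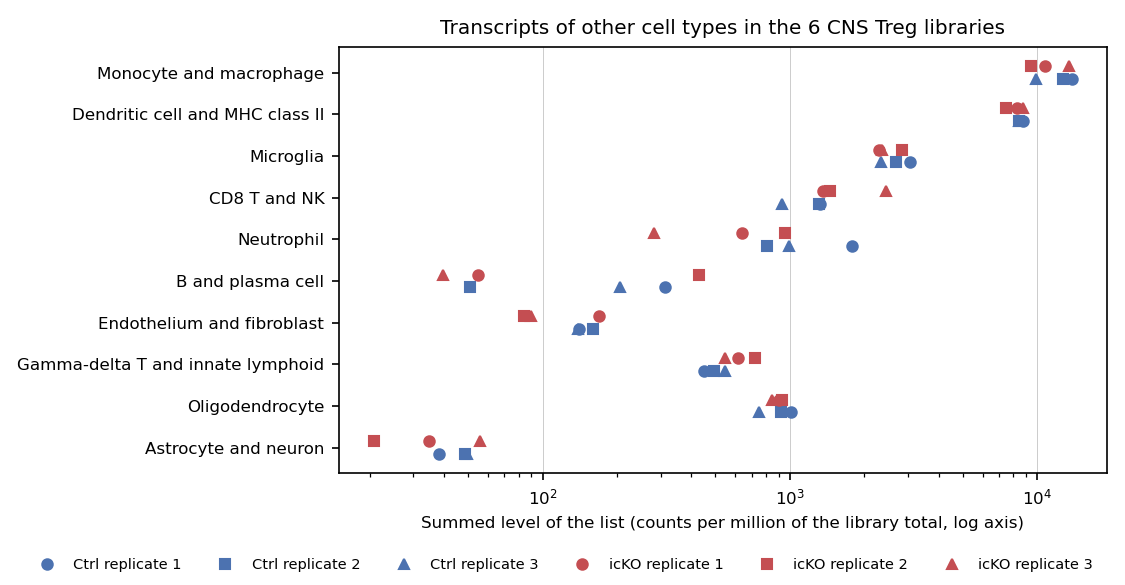
Summed level of the transcripts of other cell types in each CNS Treg library, in CPM of the library total on a log axis, with Ctrl and icKO libraries in different colours and replicates by marker shape. The CD8 T and NK sum is highest in icKO replicate 3 (2444 CPM), where the neutrophil sum is lowest (283 CPM), and the monocyte and macrophage sums of the genotypes overlap.

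Among the TNF receptor and ligand genes, Tnfrsf1b was the only member with an unadjusted p under 0.05. The other members overlapped between the genotypes with 1 exception, Fas, which lay lower in every icKO library (3.85% of all genes did). Of 27 genes 26 were tested, with a median log2 fold change of 0.10. Tnfrsf1a, which encodes TNFR1, was at 54.7, 88.3 and 60.8 CPM in Ctrl and 86.2, 50.4 and 104 CPM in icKO libraries. The log2 fold change of 0.24 ± 0.30 did not exceed its error. Tnf, the ligand of both receptors, was at 52.2, 86.5 and 25.8 CPM in Ctrl and at 28.8, 7.68 and 161 CPM in icKO libraries, and Lta, which encodes lymphotoxin alpha, another ligand of both, was at 22.6 to 70.0 and 25.3 to 153 CPM. For both ligands icKO replicate 3 was far above the other libraries, and without it the median of the list was -0.11. The costimulatory receptors of Treg cells were abundant and overlapped: Tnfrsf18 (GITR) was at 1089 ± 174 CPM in Ctrl and 1168 ± 319 CPM in icKO libraries, and Tnfrsf4 (OX40) at 789 ± 250 and 867 ± 282 CPM. Tnfrsf9, the activation-induced receptor 4-1BB, ranged from 407 to 1308 CPM in Ctrl and from 233 to 1358 CPM in icKO libraries. Fas, the death receptor, was at 68.8, 72.6 and 61.2 CPM in Ctrl and 49.3, 53.3 and 60.1 CPM in icKO libraries, with a log2 fold change of -0.32 ± 0.19.

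For the NF-kB pathway, downstream of TNFR2, all 33 listed genes were tested, 8 had log2 fold changes above 0, and the median was -0.09. Of them 0 lay outside the range of the other genotype, where 3.91% of all genes lay higher and 3.85% lower. The adaptor Traf2, which TNFR2 recruits, was at 97.2, 93.9 and 84.8 CPM in Ctrl and 70.1, 58.7 and 84.9 CPM in icKO libraries, a log2 fold change of -0.37 ± 0.20. Traf3, an inhibitor of the noncanonical pathway, had a log2 fold change of -0.67 ± 0.36. The NF-kB target Tnfaip3, which encodes the feedback inhibitor A20, was at 404, 663 and 507 CPM in Ctrl and 408, 470 and 343 CPM in icKO libraries. Nfkbia, the inhibitor IkB alpha, was at 393 to 604 CPM in Ctrl and 342 to 472 CPM in icKO libraries. The lowest adjusted p of the list was 0.999. Without Ctrl replicate 2, which was highest for Tnfaip3 and Nfkbia, the median of the list was 0.04.

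Among Treg identity genes, Ikzf2, Gpr83 and Cbfb did not overlap between the genotypes. Of 23 genes, all tested, 12 were above 0, the median was 0.02, 1 lay higher (3.91% of all genes did) and 2 lay lower (3.85%) in every icKO library. Foxp3 (chromosome X, 7573644 to 7595245, plus strand) was at 23.4, 23.2 and 59.1 CPM in Ctrl and at 67.4, 31.2 and 47.8 CPM in icKO libraries. Ctrl replicate 3 and icKO replicate 1 stood highest, and the genotypes overlapped. The log2 fold change was 0.47 ± 0.42, with a range of 0.16 without icKO replicate 1 to 1.07 without Ctrl replicate 3. Ikzf2, which encodes Helios, a transcription factor of stable Treg cells, was at 105, 107 and 120 CPM in Ctrl and at 149, 159 and 157 CPM in icKO libraries, a log2 fold change of 0.49 ± 0.16. Gpr83, a G protein-coupled receptor of Treg cells, was at 40.3, 40.4 and 39.6 CPM in Ctrl and 25.95, 22.4 and 32.2 CPM in icKO libraries, a log2 fold change of -0.58 ± 0.22. Cbfb, a partner of the Runx factors, was at 195, 196 and 209 CPM in Ctrl and 193, 168 and 183 CPM in icKO libraries, a log2 fold change of -0.14 ± 0.16. None of these passed the adjusted threshold, as the lowest adjusted p of the list was 0.999. Il2ra, the alpha chain of the interleukin-2 receptor, was at 374 ± 101 CPM in Ctrl and 362 ± 86.7 CPM in icKO libraries. Ctla4, the inhibitory receptor through which Treg cells act on dendritic cells, was at 239, 384 and 553 CPM in Ctrl and 322, 278 and 490 CPM in icKO libraries. Lrrc32, the TGF-beta docking protein GARP, ranged from 215 to 471 and from 198 to 463 CPM.

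The 31 effector and suppressor genes of Treg cells, all tested, had a median of 0.03. Maf, picked above for not overlapping, was the only one that lay outside the range of the other genotype. Of all genes, 3.91% lay higher and 3.85% lower in every icKO library. Ccr8, a chemokine receptor of tissue Treg cells, was at 32.2, 55.1 and 120 CPM in Ctrl and 25.5, 33.3 and 45.8 CPM in icKO libraries, with a log2 fold change of -0.99 ± 0.44. Its highest value, in Ctrl replicate 3, lay apart from all others. Gata3, a transcription factor of tissue Treg cells and Th2 cells, was at 359, 424 and 367 CPM in Ctrl and 412, 591 and 472 CPM in icKO libraries. Il1rl1, the interleukin-33 receptor ST2, was at 69.7, 60.1 and 125 CPM in Ctrl and 178, 99.2 and 75.9 CPM in icKO libraries. Gzmb, granzyme B, which activated Treg cells and cytotoxic cells both express, ranged from 318 to 1243 CPM in Ctrl and from 419 to 2044 CPM in icKO libraries. Il10, the suppressive cytokine, stayed at or under 6.50 CPM in all libraries. Icos, Pdcd1, Tigit and Entpd1, which encode receptors and an ectoenzyme of suppressive Treg cells, had log2 fold changes of 0.14, 0.00, 0.07 and 0.10 with overlapping libraries.

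T helper and cytokine genes followed single libraries more than genotype. The Th1 list of 17 genes had a median of 0.04. Ccl5 and Eomes, both also known from CD8 T cells, lay higher in every icKO library and 0 lay lower. Of all genes, 3.91% lay higher and 3.85% lower. Ccl5 had already been picked above for not overlapping, and Eomes was counted above among the CD8 T and NK genes. Ifng was at 93.9, 288 and 85.8 CPM in Ctrl and at 50.1, 11.6 and 635 CPM in icKO libraries. Its lowest and highest values were both in icKO libraries. Tbx21, which encodes the Th1 factor T-bet, was at 75.7, 65.6 and 33.4 CPM in Ctrl and 64.1, 47.5 and 68.4 CPM in icKO libraries. Of 17 Th17 genes 15 were tested, with a median of -0.15. Maf, picked above for not overlapping, was again the only one without overlap. Il17a was at 5.44, 9.19 and 2.58 CPM in Ctrl and 1.04, 0 and 4.22 CPM in icKO libraries, and Il22 was at 55.5 CPM in icKO replicate 3 against at most 13.6 CPM in the others. Inflammatory cytokines had 20 of 22 genes tested and a median of 0.08, which was -0.77 without icKO replicate 3. The 17 genes of interleukin-2 and STAT5 signalling had a median of 0.05 with 0 outside the range of the other genotype (3.91% of all genes lay higher and 3.85% lower).

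Of 17 tested genes of the T cell receptor complex, 3 lay higher and 0 lower in every icKO library (3.91% and 3.85% of all genes). Cd3e was at 909, 879 and 864 CPM in Ctrl and at 1039, 1209 and 1114 CPM in icKO libraries, a log2 fold change of 0.34 ± 0.15. Cd3d was at 535, 505 and 495 CPM in Ctrl and 563, 643 and 644 CPM in icKO libraries. Thy1 was the third, and the median of the list was 0.09. Cd4, in contrast, had a log2 fold change of -0.09 ± 0.17, and Lck, Lat and Zap70, which transmit the receptor signal, had values of 0.07, -0.06 and -0.03. The CD8 T and NK sums given above lay higher in the same libraries, and their part in the Cd3e and Cd3d values was not tested. Early activation genes, 28 in all, had a median of -0.05 and 0 members without overlap, with Nr4a1 at 88.5, 87.3 and 87.3 CPM in Ctrl and 77.1, 38.6 and 94.0 CPM in icKO libraries. Naive and central T cell genes (20) had a median of 0.01. Trafficking genes (25) had a median of 0.08 with S1pr4, a sphingosine phosphate receptor, higher in every icKO library at 104 to 120 CPM against 70.7 to 99.1 CPM. Itga4, the alpha chain of the integrin VLA-4 that carries T cells into the CNS, was at 121, 99.9 and 106 CPM in Ctrl and 277, 143 and 94.0 CPM in icKO libraries.

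As a group, cell cycle genes had lower levels in icKO than in Ctrl libraries, and most of the difference went with 1 control library. Of 50 genes 6 had log2 fold changes above 0, the median was -0.41, and Cdt1, Mcm3 and Ccne1, which act in the licensing and start of DNA replication, lay lower in every icKO library (3.85% of all genes did). Cdt1 was at 53.9, 55.9 and 48.6 CPM in Ctrl and 39.97, 30.8 and 39.1 CPM in icKO libraries. Mcm3 was at 127, 137 and 217 CPM in Ctrl and 91.0, 125 and 108 CPM in icKO libraries. The summed level was 5056, 3933 and 6713 CPM of the library total in Ctrl and 4403, 4855 and 4082 CPM in icKO libraries, with Ctrl replicate 3 highest. Without Ctrl replicate 3 the median was -0.07, and without Ctrl replicate 2, the lowest, it was -0.69. Of the 50 genes 5 had an unadjusted p under 0.05 and 0 were called. Apoptosis genes had 21 of 22 tested and a median of -0.04, with Fas the only member without overlap. Bcl2l11, which encodes the pro-apoptotic protein Bim, was at 38.1 to 73.5 CPM in Ctrl and 22.6 to 54.1 CPM in icKO libraries.

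Oxidative phosphorylation and ribosomal protein genes lay slightly higher in icKO libraries, and both consist mostly of short transcripts, for which the libraries differed as a whole. Of 75 oxidative phosphorylation genes 67 were above 0, the median was 0.20, and 13 lay higher and 0 lower in every icKO library, against 3.91% and 3.85% of all genes. Cox6c, a subunit of cytochrome c oxidase, was at 204, 182 and 206 CPM in Ctrl and 210, 272 and 279 CPM in icKO libraries. Of 47 ribosomal protein genes 46 were above 0, the median was 0.34, and 9 lay higher (3.91% of all genes) and 0 lower (3.85%) in every icKO library. Rps24 was at 215, 150 and 251 CPM in Ctrl and 279, 307 and 351 CPM in icKO libraries. Over all genes, the median log2 fold change was 0.34 for the 73 genes with transcripts under 500 base pairs and 0.16 for the 581 genes of 500 to 1000 base pairs, against -0.07 for those of 3000 to 4000 base pairs. Of those 73 genes 23.3% lay higher and 0% lay lower in every icKO library. The median deviation of these short transcripts from the mean of the 6 libraries was 0.21 in icKO replicate 2 and 0.32 in icKO replicate 3, but -0.01 in icKO replicate 1. An alternative chosen after seeing the data corrected counts for each library's deviation by transcript length. The median was then 0.02 for oxidative phosphorylation and 0.18 for ribosomal protein genes. The deviations were taken from all genes of at least 10 CPM, members of these lists included. The correction can thus also remove part of the lists' own difference, and whether length accounts for it was not tested. Glycolysis genes (25) had a median of -0.08 with 0 members without overlap.

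**Figure D4:**
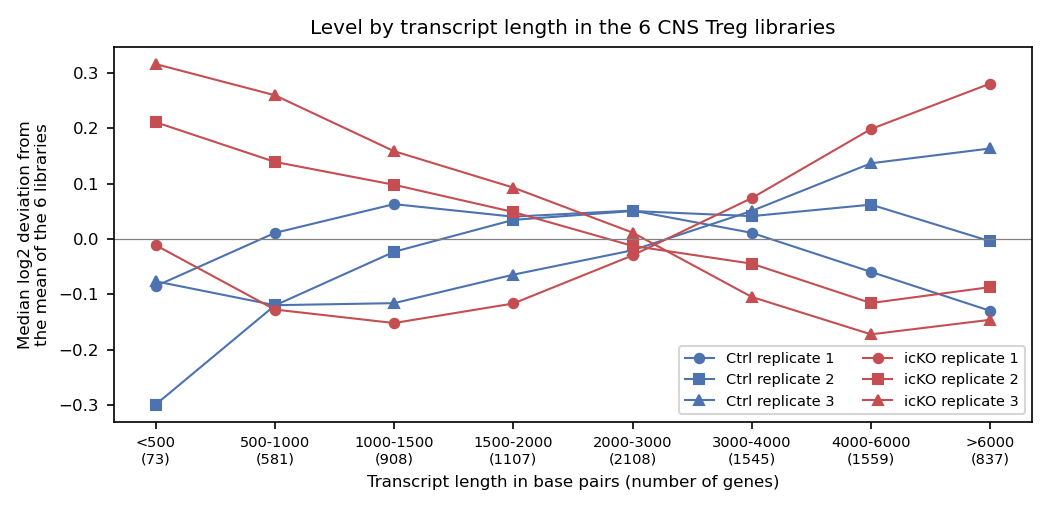
Median log2 deviation of a gene's level from the mean of the 6 CNS Treg libraries, by transcript length class in base pairs, with a line for each library and the number of genes in brackets. icKO replicates 2 and 3 lie highest for short and low for long transcripts, while icKO replicate 1 follows Ctrl replicate 3 and lies at 0.28 for transcripts over 6000 base pairs.

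Genes of cholesterol synthesis had a median log2 fold change above that of all genes, also after the correction for transcript length, but not every icKO library lay higher. Of 24 tested genes 22 were above 0, the median was 0.28, and 3 lay higher and 0 lower in every icKO library, where 3.91% and 3.85% of all genes did. After the length correction the median was 0.32, and when each library was left out in turn it was 0.16 to 0.45. The summed level was 1213, 1310 and 1063 CPM of the library total in Ctrl and 1627, 1189 and 1466 CPM in icKO libraries, so that icKO replicate 2 lay below Ctrl replicates 1 and 2. Sqle, squalene epoxidase, was at 46.2, 57.3 and 38.3 CPM in Ctrl and 78.9, 48.4 and 87.1 CPM in icKO libraries. Hmgcs1, an early enzyme of the pathway, was at 50.5, 37.3 and 46.2 CPM in Ctrl and 86.5, 47.1 and 61.2 CPM in icKO libraries. For both genes icKO replicates 1 and 3 lay above all control libraries, and icKO replicate 2 lay within their range. Of the 24 genes 1 had an unadjusted p under 0.05, where 2.28% of all genes did, and 0 were called.

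Interferon and stress response genes had medians near that of all genes. The 30 type I interferon response genes had a median of -0.03, with Ifi27l2a, an interferon-induced gene, at 1470, 1808 and 1523 CPM in Ctrl and at 2057, 2172 and 2766 CPM in icKO libraries. It was the only one of them to lie outside the range of the other genotype, where 3.91% of all genes lay higher and 3.85% lower. Its log2 fold change was 0.54 ± 0.18. The 23 interferon-gamma response genes had a median of -0.11 and 0 members without overlap. Heat shock and unfolded protein genes (24) had a median of 0.00. Amino acid response genes had 18 of 19 tested and a median of -0.11, and Ddit3, which encodes the stress factor CHOP, was at 16.2, 18.5 and 16.1 CPM in Ctrl and 24.0, 23.6 and 24.7 CPM in icKO libraries. Replication histones had 16 of 22 tested and a median of 0.32, which was 0.12 after the length correction, with 1 gene higher and 1 lower in every icKO library.

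**Figure D5:**
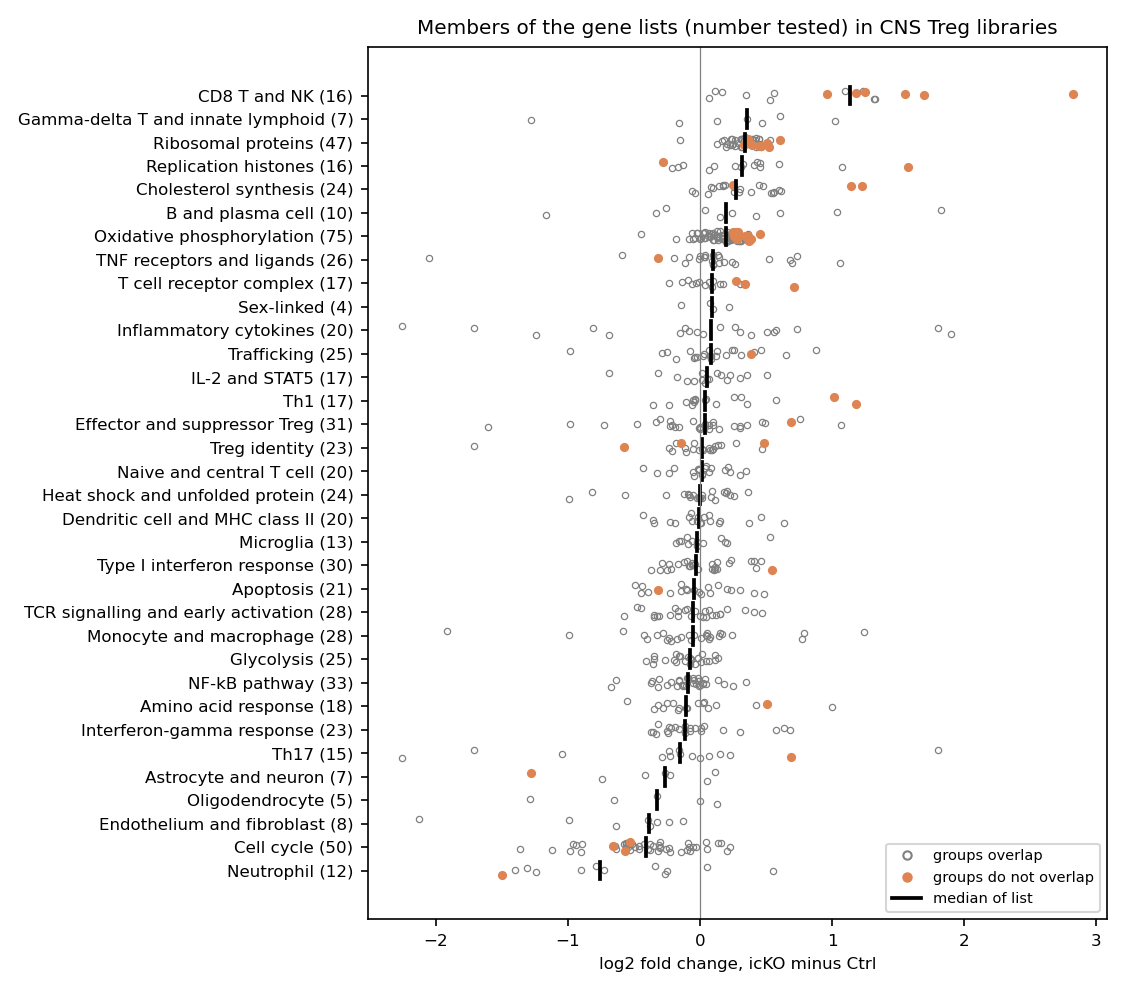
log2 fold change, icKO minus Ctrl, of every tested member of 34 gene lists in CNS Treg libraries, with the list median as a black line and filled points for genes whose libraries did not overlap between the genotypes. The CD8 T and NK list has the highest median (1.14) and the neutrophil list the lowest (-0.76), and most T cell lists lie close to the median of all genes (-0.01).

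Whether the genotype difference of CNS Treg cells differed from that of dLN Treg cells was tested in a fit of the 12 Treg libraries of both tissues. Of 12594 genes tested, 0 had an adjusted p under 0.05 in edgeR (0% of genes), 409 had an unadjusted p under 0.05, and the DESeq2 Wald test called 6, among them Ash1l, Cd8b1, Ikzf2 and Lncpint. In dLN Treg cells the genotype comparison itself called 0 genes, with 177 at an unadjusted p under 0.05. Ikzf2 was at 109, 111 and 125 CPM in CNS Ctrl and 152, 163 and 166 CPM in CNS icKO libraries in this fit. In the lymph nodes it was at 222, 233 and 254 CPM in Ctrl and 223, 184 and 190 CPM in icKO libraries. The icKO libraries thus lay above the controls in the CNS and, in 2 of 3, below them in the lymph nodes, and the difference of the log2 fold changes was 0.73 ± 0.16, with an adjusted p of 0.9999 in edgeR and 0.0399 in the DESeq2 Wald test. Ash1l was at 27.8 and 52.3 CPM on average in CNS Ctrl and icKO cells and at 61.8 and 41.7 CPM in the lymph node groups, a difference of 1.47 ± 0.28 with an adjusted p of 0.730 in edgeR and 0.00648 in DESeq2. Cd8b1 was at 29.4 CPM in dLN Ctrl and 29.5 CPM in dLN icKO cells, and the difference between the tissues was 1.69 ± 0.32, with the same adjusted p as Ash1l in both tests. Lncpint, a long noncoding RNA, had a difference of 2.67 ± 0.56, with an adjusted p of 0.9804 in edgeR and 0.0236 in DESeq2, and Prmt5 had one of -0.96 ± 0.23, which neither test called. For Tnfrsf1b the log2 fold change in this fit was -0.60 ± 0.17 in the CNS and -0.36 ± 0.17 in the lymph nodes, and the difference of -0.24 ± 0.24 did not exceed its error.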

How the data were processed

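Bulk RNA of 6 CNS Treg libraries, made with SMART-Seq v4 and Nextera per the labels' protocols, was compared, 3 per genotype. Per the submitters' processing notes, FastQC, Trimmomatic, STAR 2.5.3a, RSEM 1.2.28 and mm10 were used. The authors deposited RSEM expected counts and TPM per gene. Expected counts were rounded and tested with edgeR 4.0.16 (filterByExpr, TMM, quasi-likelihood) in R 4.3.3 on the 6 libraries alone, with a Benjamini-Hochberg adjusted p under 0.05 as the threshold. The libraries do not mark strand, and counts of near-identical genes, such as histones, are uncertain. The deposited TPM values served to compare levels between genes. The interaction used 12 Treg libraries. Library totals of 12.9 to 16.9 M counts and 3 libraries a group set the precision. The steps were also run on simulated counts, a check that was not used to judge which differences these 6 libraries could detect.

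The named genes were Tnfrsf1b, Foxp3, the 10 genes of smallest p in each direction with at least 10 CPM and no overlap (clone-named genes and antigen receptor variable segments excepted), key members and up to 4 of smallest p of each list, and 5 for the interaction. Other genes given with values were chosen after these were seen. Genes and gene lists were chosen with earlier results of these data known. Positions came from GENCODE on GRCm38. Alternatives included DESeq2 1.42.0, limma 3.58.1 voom, other filters and scalings, pooled spreads, a block for the replicate number and fits without each library in turn. The main fits did not pair the samples by replicate number. Plots used matplotlib 3.10.9. Some genes that the rule names are left out of the text.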

Additional observations from a re-analysis of the deposited data

How the results depend on the processing

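No gene was called in the CNS Treg comparison with other scalings, other filters, limma voom, spreads pooled over 12, 25 or 26 libraries, the length correction, or any library left out. The DESeq2 Wald test called 1 gene for the genotype and 6 for the difference between tissues. Leaving out a library gave 1813 to 2813 genes without overlap in place of 935, because fewer libraries overlap less often by construction. With the replicate number as a block (replicate block), 0 genes were called, 160 had an unadjusted p under 0.05, and Tnfrsf1b had a log2 fold change of -0.59. Same-numbered libraries of the genotypes had negatively correlated deviations (r of -0.289 to -0.246 over 8786 genes), so the numbers were not taken as pairs. Between CNS and dLN Treg libraries of the same number, r was 0.0007, 0.203 and 0.185 in Ctrl replicates 1 to 3. In icKO replicates 1 to 3 it was -0.0985, -0.0994 and -0.0881. The main fit of both tissues did not use such pairs, and whether they share a mouse was not tested. The length correction was chosen after seeing the data. Tnfrsf1b, Foxp3 and the 10 genes of smallest p in each direction kept their sign in every alternative. The genes of smallest p were picked for not overlapping, so leaving out a library could hardly reverse them. Of the list medians, those near 0 changed sign with single libraries, and 567 values over all lists and alternatives stayed within the spread between replicates while 11 did not. The lowest adjusted p was 0.084 with the spread of 12 Treg libraries and 0.101 without icKO replicate 1. With 3 libraries a genotype, the median half-width of the unadjusted 95% interval was 0.57 on the log2 scale for genes of at least 10 CPM. A call after adjustment needed a larger difference than that for most genes.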

Other observations

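Several genes outside the lists separated the 6 libraries in ways that cut across genotype. Ttr, which encodes the thyroxine carrier transthyretin, a product of the choroid plexus, was at 0, 162 and 63.9 CPM in Ctrl replicates 1 to 3 and at 129, 0 and 42.8 CPM in icKO replicates 1 to 3. Enpp2, which encodes autotaxin and is also high in the choroid plexus, was at 4.70, 156 and 54.9 CPM in Ctrl and at 122, 0.27 and 28.6 CPM in icKO libraries. Both genes were thus near 0 in Ctrl replicate 1 and icKO replicate 2 and present in the other libraries. Jchain, the joining chain of plasma cell antibodies, showed another order, with 216, 0 and 119 CPM in Ctrl and 0.65, 265 and 0 CPM in icKO libraries.

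Cytokine genes made up a further pattern. Csf2, which encodes GM-CSF, a cytokine of encephalitogenic T cells, was at 53.5, 52.5 and 9.57 CPM in Ctrl and at 22.9, 0.96 and 104 CPM in icKO libraries. Il1rn, the interleukin-1 receptor antagonist, was at 71.0, 218 and 70.5 CPM in Ctrl and at 71.9, 5.28 and 256 CPM in icKO libraries. Ifng, Csf2 and Il1rn were each lowest in icKO replicate 2 and highest in icKO replicate 3, so the extremes of these genes lay within the knockout group. Malat1, an abundant nuclear long noncoding RNA, was at 523, 617 and 354 CPM in Ctrl and at 466, 1350 and 1483 CPM in icKO libraries.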
